A study of Mus musculus with 12 samples.

Results

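The serum and glucocorticoid-regulated kinase gene Sgk1 was followed with 7 genes tied to glucocorticoid signalling, the hormone response that also gave the kinase its name, in regulatory T cells (Treg) from mice with a venous thrombus. The 8 genes are Sgk1, its relative Sgk3, the glucocorticoid receptor gene Nr3c1, the receptor targets Tsc22d3, Fkbp5, Per1 and Zbtb16, and the SGK1 substrate gene Nedd4l. They were found by symbol among 20834 genes that could be matched over all libraries. Sgk1 was selected on its measured difference between spleen and the other tissues in these libraries, so its values against spleen are given as a description and carry no test. The other 7 genes were named for their place in the pathway, with results of these data already known.

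The cells were live CD45+ CD4+ T cells that carried both EGFP under Foxp3 control and the surface marker CD69. All came from DEREG mice, a C57BL/6 strain with the Foxp3-DTR/EGFP transgene, which places a diphtheria toxin receptor and EGFP under Foxp3 regulation, and all mice had a ligated inferior vena cava. Tissues were collected at day 14, with 4 libraries per tissue numbered by experiment. The spleens came from thrombotic mice too, so the comparison has no unligated group, and CD69+ cells alone were sorted in every tissue. EGFP reports transgene activity rather than FOXP3 protein. The labels give no age, no steroid treatment and no time of day, and they do not say whether mice were pooled, so each p-value reflects variation among the samples at hand, part of which may be technical.

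Glucocorticoids cross the cell membrane and bind the receptor encoded by Nr3c1, which then leaves its chaperones and acts on genes in the nucleus. Tsc22d3 encodes GILZ, a leucine zipper protein through which glucocorticoids restrain T cell activation, and Fkbp5 encodes a co-chaperone that lowers the receptor's affinity for hormone. Per1, a repressor of the circadian clock, and Zbtb16, which encodes the zinc finger factor PLZF, are further known targets. Sgk1 is induced by glucocorticoids but also by growth factors, T cell receptor signals and salt, and its kinase phosphorylates FOXO transcription factors and the ubiquitin ligase encoded by Nedd4l. In T cells the kinase is known for promoting Th17 differentiation and for weakening Treg function under high salt.

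Promoter windows of 4 of the 8 genes could be matched in the RefSeq set used here (GRCm38.p6, 250 bases before to 50 bases after a transcript start). Sgk1 has 6 such windows, Tsc22d3 has 3, Per1 has 2 and Fkbp5 has 1. Windows of Sgk3, Nr3c1, Nedd4l and Zbtb16 were not used here. In the files' gene models (GRCm38), Sgk1 spans chr10:21882184-21999903 on the plus strand, Per1 chr11:69095217-69109960 on the plus strand, Tsc22d3 chrX:140539528-140600659 on the minus strand and Fkbp5 chr17:28399095-28517524 on the minus strand. The windows below come from these 4 genes because theirs could be matched. Capitals mark every match to AGAACA (the core of a glucocorticoid receptor site, either strand), TGACG (the core of a cyclic AMP response site, either strand) or CACGTG (an E-box, the element bound by clock factors), and also the 3 bases between 2 matches that form a palindrome. Of Sgk1 the window with the palindrome and the most downstream window are shown, of Tsc22d3 the window with AGAACA, and of Per1 and Fkbp5 all windows. The first 2 lines are Sgk1 at chr10:21993640-21993939 and chr10:21994416-21994715 on the plus strand. The others are Tsc22d3 at chrX:140600473-140600772 on the minus strand, Per1 at chr11:69098699-69098998 and chr11:69099902-69100201 on the plus strand and Fkbp5 at chr17:28486100-28486399 on the minus strand. Each is written 5′ to 3′ in the direction of the gene.
Sgk1, upstream start: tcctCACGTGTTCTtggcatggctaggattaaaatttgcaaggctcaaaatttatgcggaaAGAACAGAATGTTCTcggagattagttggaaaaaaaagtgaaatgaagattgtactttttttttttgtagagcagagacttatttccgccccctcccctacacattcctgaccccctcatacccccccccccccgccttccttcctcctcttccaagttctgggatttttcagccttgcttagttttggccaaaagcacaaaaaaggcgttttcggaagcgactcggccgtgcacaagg
Sgk1, downstream start: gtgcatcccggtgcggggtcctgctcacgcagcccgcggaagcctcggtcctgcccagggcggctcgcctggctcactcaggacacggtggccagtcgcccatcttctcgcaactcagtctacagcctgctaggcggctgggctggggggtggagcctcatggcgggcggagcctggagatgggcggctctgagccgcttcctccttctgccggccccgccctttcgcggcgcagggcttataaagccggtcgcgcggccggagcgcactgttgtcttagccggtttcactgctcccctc
Tsc22d3: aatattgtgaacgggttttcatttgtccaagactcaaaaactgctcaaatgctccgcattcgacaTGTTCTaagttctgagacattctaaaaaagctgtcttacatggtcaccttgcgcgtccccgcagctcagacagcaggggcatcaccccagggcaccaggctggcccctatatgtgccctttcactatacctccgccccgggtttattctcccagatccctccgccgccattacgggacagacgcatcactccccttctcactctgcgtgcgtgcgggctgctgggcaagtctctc
Per1, upstream start: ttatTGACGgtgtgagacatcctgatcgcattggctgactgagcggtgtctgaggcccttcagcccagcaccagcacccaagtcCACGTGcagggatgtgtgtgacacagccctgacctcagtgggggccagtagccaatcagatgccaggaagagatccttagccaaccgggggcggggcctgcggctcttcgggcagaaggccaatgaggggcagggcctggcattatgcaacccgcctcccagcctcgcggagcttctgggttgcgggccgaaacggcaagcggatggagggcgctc
Per1, downstream start: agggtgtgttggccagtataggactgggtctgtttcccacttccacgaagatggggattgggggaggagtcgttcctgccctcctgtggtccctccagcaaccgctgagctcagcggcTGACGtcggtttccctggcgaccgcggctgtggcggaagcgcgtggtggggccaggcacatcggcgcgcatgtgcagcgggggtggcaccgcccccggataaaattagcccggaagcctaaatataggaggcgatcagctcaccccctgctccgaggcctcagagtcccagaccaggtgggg
Fkbp5: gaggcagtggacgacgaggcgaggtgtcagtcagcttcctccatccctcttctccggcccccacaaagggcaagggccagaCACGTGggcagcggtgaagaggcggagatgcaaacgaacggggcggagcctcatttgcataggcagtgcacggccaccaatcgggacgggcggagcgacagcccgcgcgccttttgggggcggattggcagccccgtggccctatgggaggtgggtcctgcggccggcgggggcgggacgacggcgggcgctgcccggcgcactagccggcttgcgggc

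The upstream Sgk1 window holds the palindrome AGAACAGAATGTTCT, which is AGAACA and its reverse complement TGTTCT with 3 bases between them, beginning 189 bases before the transcript start. A palindrome of this form occurs in 3 of the 32851 promoter windows of this length, or 0.00913%. The same window has a further TGTTCT 242 bases before the start, which overlaps an E-box. AGAACA on either strand alone is common and occurs in 19% of all windows. The Tsc22d3 window shown was picked for it and holds it 185 bases before the start, while the other Tsc22d3 windows hold none. Sgk1 windows not shown hold it 195 and 13 bases before their starts. Neither the Per1 nor the Fkbp5 windows hold it. TGACG, found in 20.8% of windows, lies 246 bases before the upstream Per1 start and 132 bases before the downstream one. It also lies in windows not shown, 236 bases before an Sgk1 start and 224 bases before a Tsc22d3 start. The E-box, found in 7.15% of windows, lies 166 bases before the upstream Per1 start and 169 bases before the Fkbp5 start. Matches are descriptions of these letters only. The libraries give no binding data, and the deposited gene totals do not say which Sgk1 start was used.

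The libraries held 9719151 to 55386086 exon reads. Files came in 3 sets with distinct column layouts and gene models: set 1 held spleen 1 and thrombus 1, set 2 held spleen 2, thrombus 2 and vein wall 1, and set 3 held the rest. Spleen 3 and 4 agreed far more closely than other replicates (mean chi-square per gene of 3.96, against 96.9 to 355 in the 16 other pairs), as did vein wall 3 and 4 (2.55). Each of these pairs was summed as 1 sample, which left 3 spleen, 4 thrombus and 3 vein wall samples. Levels are exon reads relative to the TMM-scaled size of the library, in the usual CPM unit, and a library with 0 reads of a gene allows up to 0.0542 to 0.309 CPM. In every sample Foxp3 was between 275 and 706 CPM and Cd69 between 240 and 878 CPM, so the sorted identity was present. Markers of other cells varied: the 7 fibroblast genes summed to 0 to 0.453 CPM in spleen, 7.41 to 18.7 in thrombus and 10.3 to 59.8 in the vein wall, with none of the 7 above 0 in all samples. The 8 macrophage and monocyte genes summed to 26.7 to 145 CPM in spleen, 45.7 to 1549 in thrombus and 20.7 to 260 in the vein wall. The part of these cells in the results below was not tested, and in sorted bulk samples more cells with a transcript cannot be told apart from more transcript per cell.

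Sgk1 RNA was low in splenic Treg and high in Treg of both thrombotic tissues. It stood at 19.4, 7.94 and 10.2 CPM in spleen 1, 2 and 3-4. The 4 thrombus samples had 115.5, 91.6, 94.2 and 73.7 CPM, and the vein wall samples had 145.8, 83.1 and 99.95 CPM. Every thrombus and vein wall sample was above every spleen sample, and the thrombus and vein wall values overlapped. The means were 12.5 ± 6.08 CPM in spleen (SD, n = 3), 93.7 ± 17.1 in thrombus (n = 4) and 109.6 ± 32.4 in the vein wall (n = 3). The fitted log2 difference from spleen was 2.91 ± 0.45 (SE) in thrombus and 3.13 ± 0.46 in the vein wall. Both comparisons use the same spleen samples.

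**Figure D1:**
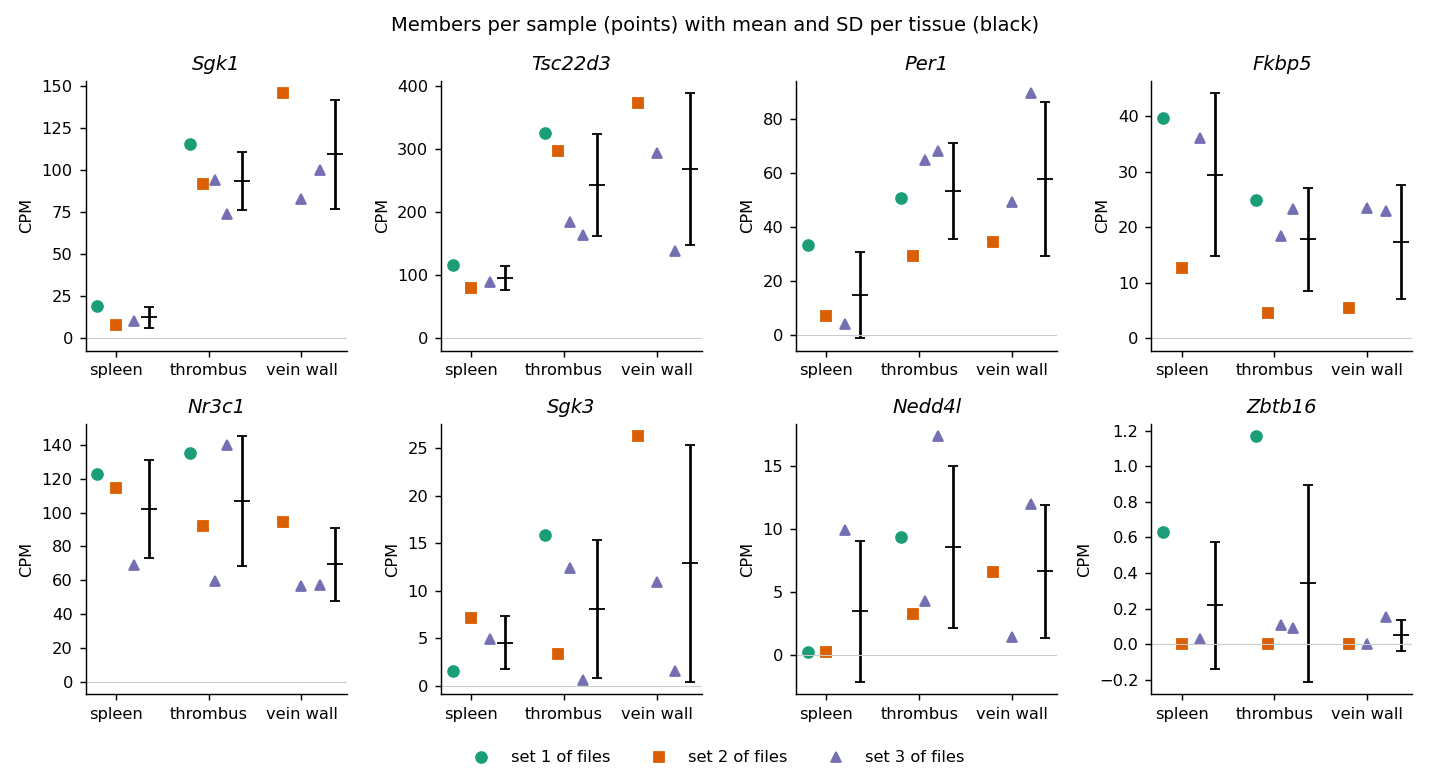
Level in CPM (y axes, linear, different scale per gene) of the 8 genes in each sample by tissue (x axes); points are samples, marked by set of files, and black bars give the mean ± SD per tissue. Sgk1 and Tsc22d3 have no overlap between spleen and either other tissue, whereas the tissues overlap for Fkbp5, Nr3c1, Sgk3, Nedd4l and Zbtb16.

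Because the sets of files differ in gene models, each thrombus and vein wall sample was also set against the spleen sample of its own set. The 7 ratios of a gene rest on 3 spleen samples, with all of set 3 divided by spleen 3-4, so they are not independent. Sgk1 was 5.94-fold higher in thrombus 1 than in spleen 1, the smallest of the 7 ratios, since spleen 1 had the highest splenic level. In set 2 the ratio was 11.5 for thrombus 2 and 18.4 for vein wall 1, the highest. In set 3 the ratios were 9.19 and 7.20 for thrombus 3 and 4 and 8.11 and 9.76 for vein wall 2 and 3-4. Over all genes tested, 4.03% were above spleen in all 7 samples; Sgk1 was selected on this contrast, so nothing is read from its place among them. Without overlap between groups, 2.49% of genes were higher in thrombus than spleen, while 6.75% were higher in the vein wall than in spleen.

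Between thrombus and vein wall, a contrast on which Sgk1 was not selected, the log2 difference was -0.23 ± 0.40 (SE; edgeR quasi-likelihood test, adjusted p = 0.999 over 11686 genes). Leaving out vein wall 1, its highest sample, turned the sign to 0.014. The levels in the 2 thrombotic tissues did not differ beyond their spread. Per kilobase of exon, Sgk1 stood at 3.06 ± 1.49 RPKM (reads per kilobase and per library size) in spleen (SD, n = 3), 21.8 ± 4.19 in thrombus (n = 4) and 24.0 ± 6.62 in the vein wall (n = 3). On this scale, the mean level of Sgk1 lay below those of Nr3c1, Tsc22d3 and Fkbp5 in spleen, and in thrombus and vein wall it lay second to that of Tsc22d3.

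Reads across exon junctions were also lowest in spleen, and overlapped between thrombus and vein wall. They are part of the exon reads on which Sgk1 was selected and are given as a description. Junction reads of Sgk1 stood at 1.62 to 3.06 CPM in the 4 spleen libraries, 19.8 to 35.8 in the 4 thrombus libraries and 10.02 to 29.8 in the 4 vein wall libraries. Junction reads made up 23.6% to 26.8% of its exon reads in thrombus, near the 21.8% to 26.4% over all genes there. The share was 11.2% and 10.5% in vein wall 3 and 4, the near-duplicate pair, against 23.0% and 25.1% in vein wall 1 and 2. Intron reads made up 8.88% to 24.1% of Sgk1 gene reads in spleen, 5.92% to 9.45% in thrombus and 2.00% to 4.74% in the vein wall.

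Tsc22d3, the GILZ gene, had the highest level per length of the 8 genes in all 3 tissues, with a mean of 28.5 ± 7.78 RPKM in spleen (SD, n = 3), 70.1 ± 11.5 in thrombus (n = 4) and 76.7 ± 26.2 in the vein wall (n = 3). In CPM it stood at 116, 79.1 and 89.9 in spleen 1, 2 and 3-4. The thrombus samples had 326, 297, 184 and 164 CPM and the vein wall samples 373, 294 and 138 CPM. Every thrombus and vein wall sample was above every spleen sample, as in 2.49% of all genes for thrombus and 6.75% for the vein wall. The log2 difference was 1.35 ± 0.39 (SE) in thrombus and 1.498 ± 0.41 in the vein wall, which did not pass the edgeR test with tissue alone (adjusted p = 0.558 and 0.406). Once the set of files entered as a covariate, it was higher in thrombus (1.39 ± 0.29, adjusted p = 0.0411) and in the vein wall (1.69 ± 0.33, adjusted p = 0.0203). DESeq2 gave adjusted p = 0.0729 and 0.0486. Tsc22d3 was above the spleen sample of its set in all 7 samples, as were 4.03% of all genes. The ratio ran from 1.53-fold in vein wall 3-4 to 4.72-fold in vein wall 1. Its gene model ranges from 2771 bases of exon in set 3 to 4341 in set 1, so levels across sets carry that difference, which ratios within a set do not. Junction reads alone put Tsc22d3 at 4.43 to 8.27 CPM in spleen, 9.24 to 23.4 in thrombus and 4.49 to 22.3 in the vein wall. Vein wall overlapped spleen there, as vein wall 3 and 4 had 5.54 and 4.49 CPM and spleen 3 and 4 had 4.96 and 5.01.

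Of the 6 genes other than Sgk1 that passed the filter on low counts, edgeR with tissue alone called 0 in each comparison, beside 0.145% of all genes called in thrombus against spleen, 0.111% in the vein wall against spleen and 0% in thrombus against vein wall. At an unadjusted p under 0.05, 2 of these 6, Tsc22d3 and Per1, passed against spleen in each of the other tissues, beside 4.13% of all genes in thrombus and 5.47% in the vein wall. Between thrombus and vein wall 0 of the 6 did, beside 2.91% of all genes. With the set covariate, 1 of 6 was called in thrombus and 1 of 6 in the vein wall, in both cases Tsc22d3, beside 0.454% and 0.411% of all genes; between thrombus and vein wall 0% were called. DESeq2 called 0 of the 6 in thrombus and 1, Tsc22d3, in the vein wall, beside 0.903% and 1.02% of all genes. limma on log2(RPKM + 1) called 0 in both.

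**Figure D2:**
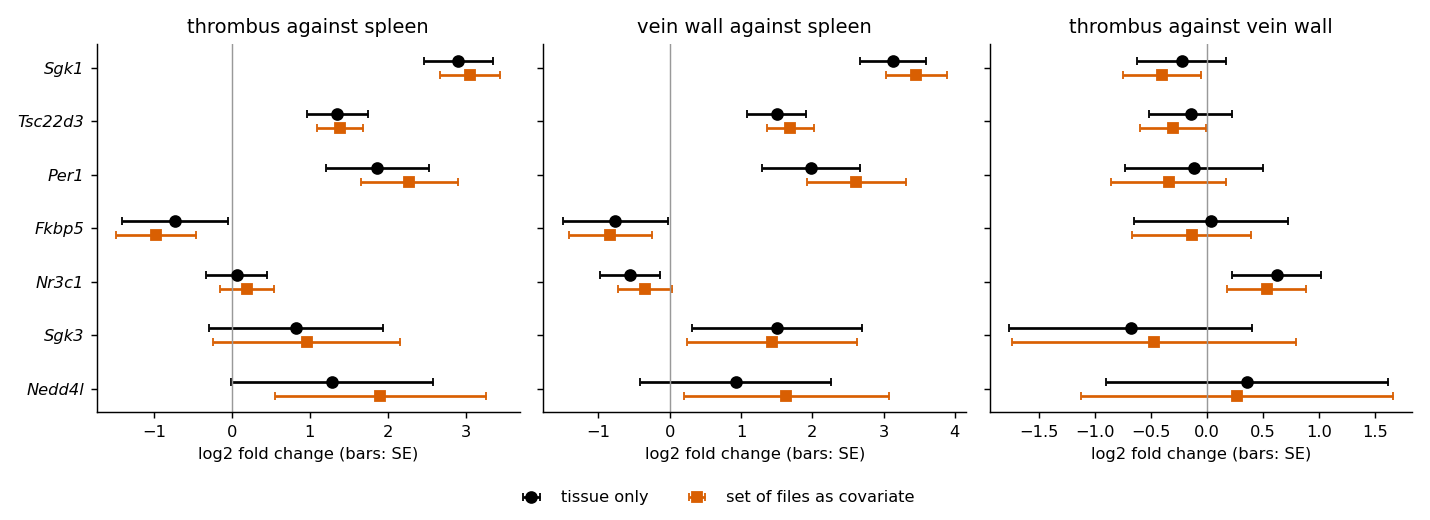
Fitted log2 fold change (x axes) of the 7 genes that passed the filter, with bars of 1 SE, in the 3 comparisons; circles are from the fit with tissue alone and squares from the fit with the set of files as covariate. Tsc22d3 keeps its place at 1.35 and 1.39 in thrombus against spleen while its SE goes from 0.39 to 0.29; between thrombus and vein wall all values lie within 1 of 0.

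Per1, the clock repressor, was low in 2 of the 3 spleen samples and several-fold higher in most others. It stood at 33.2, 7.02 and 3.79 CPM in spleen 1, 2 and 3-4, at 50.8, 29.4, 65.0 and 68.4 CPM in the thrombus samples, and at 34.3, 49.4 and 89.6 CPM in those of the vein wall. Thrombus 2 lay below spleen 1, whereas the vein wall samples were all above spleen, as in 6.75% of all genes. The log2 difference was 1.87 ± 0.66 (SE) in thrombus and 1.98 ± 0.69 in the vein wall, with adjusted p = 0.843 and 0.722 by edgeR. Without spleen 1 the differences were 3.27 ± 0.68 and 3.42 ± 0.70, with adjusted p = 0.0415 and 0.0460 by edgeR. This was not particular to Per1, as calls over all genes in thrombus against spleen went from 17 to 34 in that fit. Within sets, Per1 was above spleen in 7 of 7 samples, as were 4.03% of all genes. Its ratio was 1.53-fold in set 1, 4.18-fold and 4.89-fold in set 2, and 13.0-fold to 23.6-fold in set 3. Intron reads of Per1 made up 39.4% and 47.0% of gene reads in spleen 3 and 4, and 1.504% to 23.4% elsewhere.

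Fkbp5 went the other way. It stood at 39.7, 12.7 and 36.1 CPM in spleen 1, 2 and 3-4, at 24.9, 4.59, 18.5 and 23.4 CPM in the thrombus samples and at 5.51, 23.5 and 23.0 CPM in those of the vein wall. The groups overlapped, because all 3 samples of set 2 were low. Its log2 difference from spleen was -0.73 ± 0.68 (SE) in thrombus and -0.76 ± 0.74 in the vein wall, neither past the edgeR test (adjusted p = 1.00 and 0.961). Within sets the 7 samples were all below spleen, at 0.362 to 0.651 times its level, as were 5.08% of all genes tested. With the set covariate the difference was -0.97 ± 0.51 in thrombus (adjusted p = 0.821). In each of these 7 samples Tsc22d3 and Per1 lay above the spleen sample of the set and Fkbp5 below it.

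**Figure D3:**
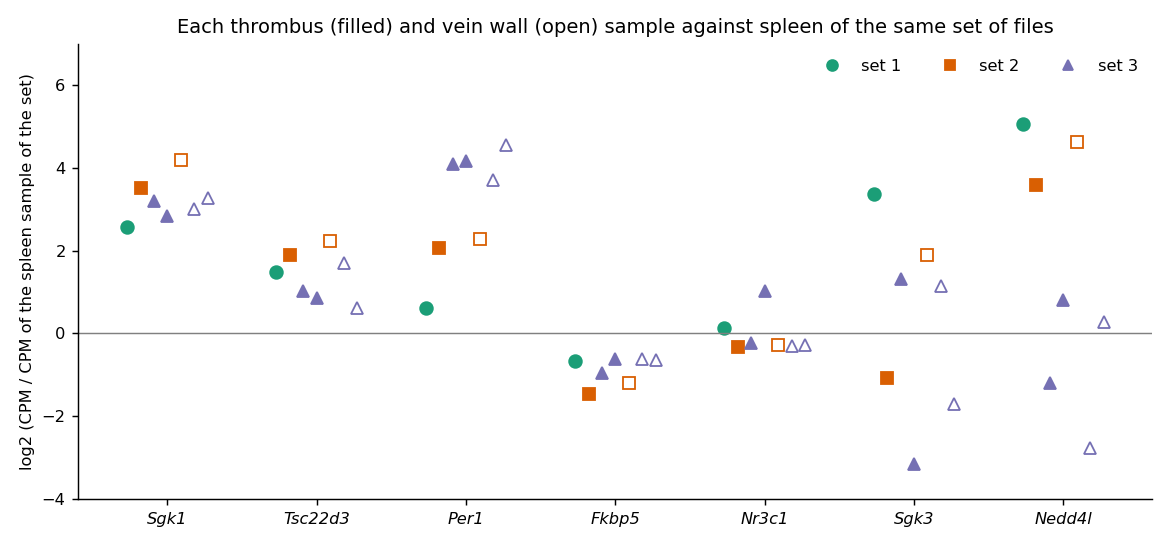
Log2 ratio of CPM (y axis) of each thrombus sample (filled) and vein wall sample (open) to the spleen sample of the same set of files, for 7 genes (x axis). All 7 points lie above 0 for Sgk1, Tsc22d3 and Per1 and below 0 for Fkbp5, while those of Nr3c1, Sgk3 and Nedd4l fall on both sides.

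The composition of Fkbp5 reads also differed. Of its exon reads, 16.8% in spleen 3 (342 of 2034) and 16.3% in spleen 4 (122 of 750) crossed a junction, against 4.95% in spleen 1 and 2.54% in spleen 2. Thrombus libraries had 0% to 5.14%. In vein wall, 0 of 87 exon reads crossed a junction in library 1, 5 of 437 in library 2, 0 of 501 in library 3 and 0 of 421 in library 4. Over all genes the junction share was 21.8% to 26.4% in every library, so fewer Fkbp5 reads crossed a junction than reads of genes at large, most of all outside spleen 3 and 4. Low shares were not particular to Fkbp5: they were 3.34% to 6.70% for Tsc22d3, 2.78% to 7.18% for Nr3c1 and 1.085% to 9.68% for Per1. Intron reads of Fkbp5 outnumbered exon reads in most libraries, at 47.1% to 76.2% of gene reads, against 8.84% to 18.8% over all genes. In junction reads alone, Fkbp5 stood at 0.313 to 6.42 CPM in spleen, 0 to 0.977 in thrombus and 0 to 0.249 in the vein wall.

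**Figure D4:**
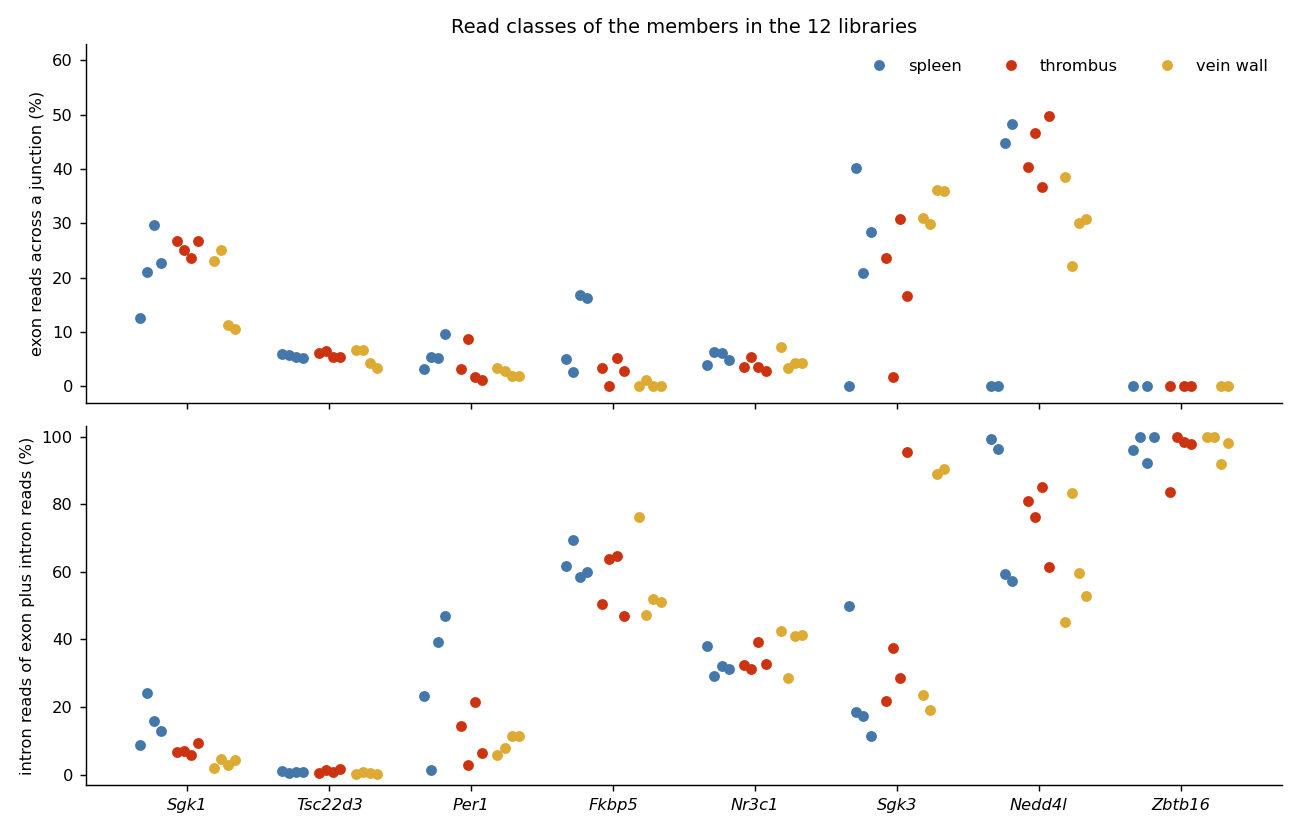
Share of exon reads that cross a junction (upper, y axis in percent) and share of intron reads among exon plus intron reads (lower, y axis in percent) for the 8 genes in the 12 libraries, coloured by tissue; a library without exon reads of a gene has no point in the upper part. Fkbp5 passes 16% junction reads in spleen 3 and 4 and lies at or below 1.14% in all vein wall libraries, and Zbtb16 has 83.6% to 100% intron reads.

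The receptor gene Nr3c1 was well expressed in every sample and showed no difference beyond its spread. It stood at 123, 115 and 69.1 CPM in spleen 1, 2 and 3-4, at 135, 92.0, 59.4 and 140 CPM in the thrombus samples and at 94.5, 56.4 and 57.0 CPM in those of the vein wall. All groups overlapped. Its log2 difference was 0.062 ± 0.39 (SE) in thrombus and -0.56 ± 0.42 in the vein wall against spleen, and 0.62 ± 0.40 between thrombus and vein wall (adjusted p = 1.00, 0.961 and 0.999). Within sets, thrombus 4 was 2.02 times its spleen sample and thrombus 1 was 1.102 times, and the other 5 samples were at 0.802 to 0.859. The direction in thrombus turned without spleen 3-4, thrombus 1 or thrombus 4, to between -0.16 and -0.075.

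Sgk3, whose kinase is recruited to endosomes through a phosphoinositide-binding domain that SGK1 lacks, was low and scattered. It stood at 1.54, 7.08 and 4.95 CPM in spleen, 15.9, 3.36, 12.4 and 0.556 CPM in thrombus and 26.2, 10.96 and 1.52 CPM in the vein wall. No tissue was separate, and its log2 difference from spleen was 0.83 ± 1.12 (SE) in thrombus and 1.51 ± 1.19 in the vein wall (edgeR adjusted p = 1.00 and 0.961). The samples with least Sgk3 exon signal still had intron reads: thrombus 4 had 6 exon and 122 intron reads, vein wall 3 had 36 and 293, and vein wall 4 had 25 and 237. In the other libraries intron reads made up 11.4% to 50% of Sgk3 gene reads. Per length, Sgk3 averaged 0.838 ± 0.584 RPKM (SD, n = 3) in spleen, 1.26 ± 1.18 in thrombus (n = 4) and 2.22 ± 1.92 in the vein wall (n = 3), below Sgk1 in each.

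Nedd4l, whose ubiquitin ligase is held in check by SGK1 phosphorylation, was at 0.281, 0.268 and 9.91 CPM in spleen 1, 2 and 3-4. Thrombus had 9.35, 3.24, 4.34 and 17.3 CPM and vein wall 6.59, 1.45 and 12.0 CPM. Spleen 1 and 2 were lowest, with 4 and 5 exon reads, whereas spleen 3-4 was above 5 of the 7 other samples. The log2 difference from spleen was 1.28 ± 1.29 (SE) in thrombus and 0.93 ± 1.34 in the vein wall (edgeR adjusted p = 1.00 and 0.980); without spleen 3-4 it was 4.93 and 4.58, still short of the threshold (adjusted p = 1 and 0.938). Spleen 1 held 661 intron reads of Nedd4l beside its 4 exon reads. Intron reads outnumbered exon reads in 11 of 12 libraries.

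Zbtb16, the PLZF gene and a target in many glucocorticoid-treated cells, did not pass the filter and was close to absent. Spleen 1, 2 and 3-4 had 9, 0 and 2 exon reads, the thrombus samples 18, 0, 1 and 1, and the vein wall samples 0, 0 and 6. No read crossed a junction in any library, and 83.6% to 100% of its gene reads were intronic. A level of spliced Zbtb16 was not detectable at this depth, and no fold is given.

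Glucocorticoid-induced genes outside the 8 were described from a list of 25, of which 22 passed the filter. In thrombus against spleen 18 of the 22 had a log2 difference above 0 with a median of 0.95, where 52.2% of all genes did with a median of 0.030. In vein wall it was 14 of 22 with a median of 0.45, where 49% of all genes were above 0 with a median of -0.014. edgeR with tissue alone called 0 of the 22 in thrombus and 0 in the vein wall, with 7 and 6 at an unadjusted p under 0.05, which 4.13% and 5.47% of all genes passed. DESeq2 called 3 in thrombus (Rgs2, Nfkbia and Anxa1) and 2 in the vein wall (Rgs2 and Anxa1), beside 0.903% and 1.02% of all genes. limma called Rgs2 in each, beside 11 and 8 of all 11686 genes. With the set covariate, which called 0.454% and 0.411% of all genes, Nfkbia and Anxa1 were higher in thrombus and Nfkbia in the vein wall. Many of these genes answer to T cell receptor or NF-kB signals as well.

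**Figure D5:**
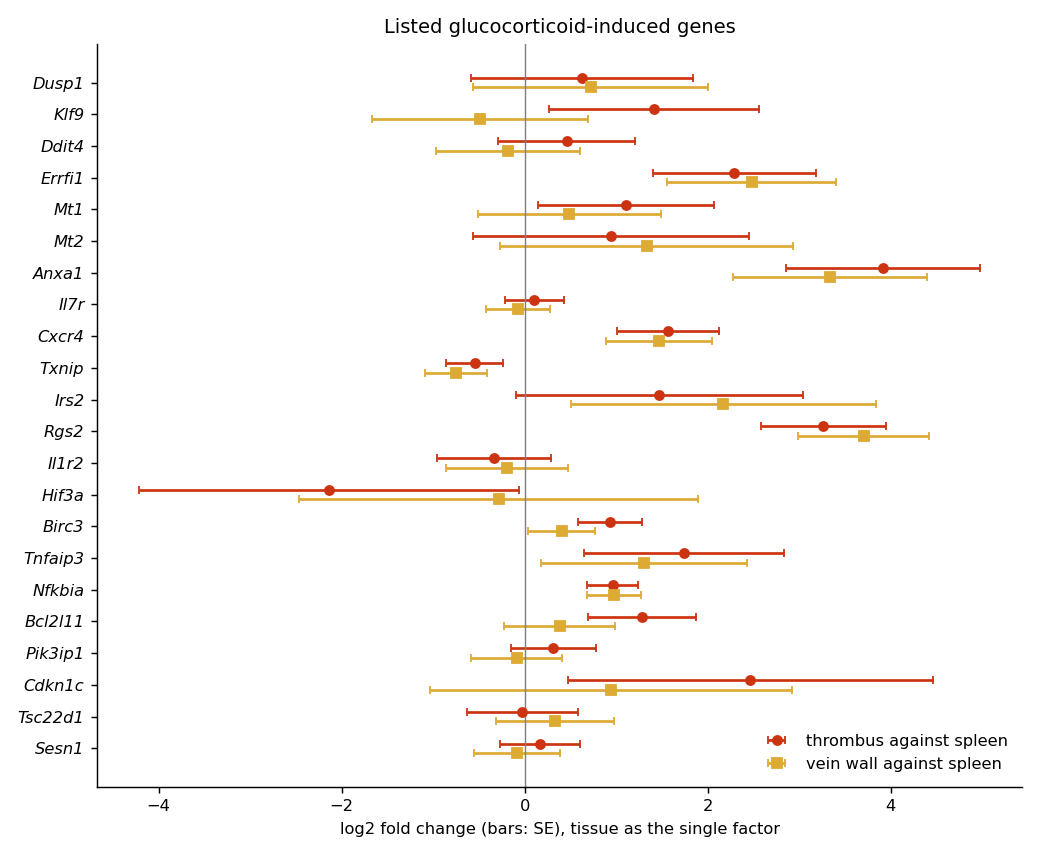
Fitted log2 fold change (x axis, bars of 1 SE) of the 22 listed glucocorticoid-induced genes that passed the filter (y axis) in thrombus (circles) and vein wall (squares) against spleen, tissue as the single factor. In thrombus 18 of 22 circles and in vein wall 14 of 22 squares lie above 0, with Anxa1 and Rgs2 farthest to the right.

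Rgs2, which encodes a regulator that shuts off Gq-coupled receptor signals, stood at 309, 87.8 and 25.95 CPM in spleen 1, 2 and 3-4, at 928.5 to 1702 CPM in thrombus and at 1603 to 2257 CPM in the vein wall. Neither tissue overlapped spleen, as in 2.49% of all genes for thrombus and 6.75% for the vein wall. The log2 difference of Rgs2 was 3.26 ± 0.68 (SE) in thrombus and 3.70 ± 0.72 in the vein wall (edgeR adjusted p = 0.201 and 0.136). Nfkbia, the inhibitor of NF-kB, was at 1421, 1301 and 1311 CPM in spleen, 2015 to 2916 in thrombus and 2363 to 2830 in the vein wall. Its log2 difference was 0.96 ± 0.28 and 0.98 ± 0.29 (adjusted p = 0.558 and 0.509), and with the set covariate it was called at 0.98 ± 0.18 and 1.02 ± 0.21 (adjusted p = 0.0161 and 0.0293). Anxa1, an anti-inflammatory annexin, was at 1.33, 3.48 and 1.44 CPM in spleen, 9.41 to 90.5 in thrombus and 3.14 to 47.1 in the vein wall; the set covariate called it in thrombus (3.51, adjusted p = 0.0298) and not in the vein wall (2.83, adjusted p = 0.176). Dusp1, the phosphatase through which glucocorticoids dampen MAP kinases, differed by 0.62 ± 1.21 and 0.72 ± 1.28, with spleen 1 alone at 1670 CPM and the other spleen samples at 118 and 258.

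Among 23 genes for the receptor's partners (chaperones, coregulators and hormone-converting enzymes), 22 passed the filter. edgeR called 0 in thrombus and 0 in the vein wall against spleen, with 1 and 2 at an unadjusted p under 0.05, and DESeq2 and limma called 0. Over all genes edgeR called 0.145% and 0.111%, and 4.13% and 5.47% passed that unadjusted p. The median log2 difference was 0.16 in thrombus (16 of 22 above 0) and -0.085 in the vein wall (10 of 22). For all genes the medians were 0.030 and -0.014, with 52.2% and 49% above 0. The chaperones Hsp90ab1 and Hspa8 differed by 0.040 ± 0.33 (SE) and 0.25 ± 0.38 in thrombus. Dnaja1, a DNAJ co-chaperone, was called with the set covariate in the vein wall at 1.09 ± 0.23 (adjusted p = 0.0417), beside 0.411% of all genes. Hsd11b1, whose enzyme turns inert steroid into active hormone, was named after its values were seen. It had means of 258 CPM in spleen, 266 in thrombus and 306 in the vein wall and differed by 0.046 ± 0.39 and 0.25 ± 0.42 (adjusted p = 1.00 and 0.980).

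The kinase pathway around SGK1 showed no called gene. Of 26 listed genes 25 were matched and 23 passed the filter. edgeR called 0 in each tissue against spleen, with 2 in thrombus and 1 in the vein wall at an unadjusted p under 0.05. DESeq2 and limma called 0. Of all genes, edgeR called 0.145% and 0.111%, and 4.13% and 5.47% passed that unadjusted p. The median log2 difference was 0.11 in thrombus and -0.071 in the vein wall, where the medians of all genes were 0.030 and -0.014. Foxo1, a substrate that leaves the nucleus once phosphorylated, differed by 0.30 ± 0.38 (SE) and 0.026 ± 0.40, and Wnk1, a kinase of salt transport, by -0.18 ± 0.44 and -0.19 ± 0.47. Stub1, a ubiquitin ligase reported to act on FOXP3, was at 275 ± 53.8 CPM in spleen (SD, n = 3), 155 ± 53.0 in thrombus (n = 4) and 176.5 ± 58.3 in the vein wall (n = 3), with adjusted p = 1.00 and 0.956. Ndrg1, the usual readout of SGK1 activity at the protein level, was named after its values were seen and differed by 2.59 ± 1.05 in thrombus (adjusted p = 1.00) and 0.70 ± 1.03 in the vein wall.

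Salt is another known route to Sgk1. All 8 genes listed for osmotic stress passed the filter. edgeR called 0 in each tissue against spleen, with 1 in each at an unadjusted p under 0.05, and DESeq2 and limma called 0. The edgeR shares over all genes were 0.145% and 0.111% called, and 4.13% and 5.47% at that unadjusted p. The tonicity factor gene Nfat5 differed by -0.003 ± 0.66 (SE) in thrombus and -0.62 ± 0.71 in the vein wall, and Akr1b3, which makes the osmolyte sorbitol, by 0.17 ± 0.46 and 0.69 ± 0.49. Slc38a2, an amino acid carrier, stood at 114, 58.9 and 50.01 CPM in spleen, 126.5 to 298 in thrombus and 143 to 223 in the vein wall. With the set covariate, which called 0.454% and 0.411% of all genes, it was called in both (1.34 ± 0.26 and 1.69 ± 0.29, adjusted p = 0.0230 and 0.00771). It was not called with tissue alone (adjusted p = 0.770 and 0.766).

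FOXO target genes were examined because SGK1 opposes FOXO factors. All 13 listed genes passed the filter, and 11 in thrombus and 10 in the vein wall had a difference above 0, with medians of 0.48 and 0.46. Of all genes, 52.2% and 49% were above 0, with medians of 0.030 and -0.014. edgeR called 1, Ccr7, the chemokine receptor for homing to lymph nodes, as higher in both tissues, beside 0.145% and 0.111% of all genes. DESeq2 also called Ccr7 in both tissues, beside 0.903% and 1.02% of all genes, whereas limma called 0 of the 13 in either. Ccr7 stood at 124, 153.5 and 184 CPM in spleen, 487 to 1399 in thrombus and 569 to 856.5 in the vein wall, a log2 difference of 2.37 ± 0.39 (SE; adjusted p = 0.00802) and 2.21 ± 0.40 (adjusted p = 0.0244). Il7r differed by 0.11 ± 0.33 and -0.071 ± 0.35, and Btg1 by 0.22 ± 0.32 and 0.46 ± 0.34.

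Clock genes other than Per1 were described because Per1 answers to both the clock and glucocorticoids. Of 20 listed, 19 passed the filter. edgeR called 0 against spleen, with 1 in thrombus and 2 in the vein wall at an unadjusted p under 0.05. Among all genes edgeR called 0.145% and 0.111%, and 4.13% and 5.47% passed that unadjusted p. DESeq2 called Bhlhe40 in thrombus and 0 in the vein wall, beside 0.903% and 1.02% of all genes, and limma called 0. Bhlhe40, a clock repressor also induced by T cell activation, stood at 209, 71.4 and 53.0 CPM in spleen, 218.5 to 475 in thrombus and 236 to 261 in the vein wall. Its log2 difference was 1.64 ± 0.43 (SE, edgeR adjusted p = 0.400) and 1.14 ± 0.45 (adjusted p = 0.804). With the set covariate, which called 0.454% and 0.411% of all genes, it was called at 1.93 ± 0.30 and 1.76 ± 0.33 (adjusted p = 0.00197 and 0.0142). Rora and Csnk1d, the next most abundant, differed by 0.51 ± 0.36 and 0.23 ± 0.41 in thrombus and by 0.063 ± 0.39 and 0.052 ± 0.44 in the vein wall. Per2, the relative of Per1, was low, at a mean of 3.74 CPM in spleen, 0.981 in thrombus and 2.47 in the vein wall. Its log2 difference was below 0, unlike that of Per1, at -1.92 ± 1.80 in thrombus and -0.60 ± 1.91 in the vein wall. Among 19 paralogs of the 8 genes (TSC22, FKBP, NEDD4 and BTB zinc finger families) edgeR, DESeq2 and limma called 0. At an unadjusted p under 0.05 by edgeR there were 0 in thrombus and 1 in the vein wall, beside the same shares of all genes as for the clock list. The FKBP genes with the highest levels, Fkbp1a, Fkbp3 and Fkbp8, differed from spleen by -0.24 ± 0.35, 0.28 ± 0.36 and -0.049 ± 0.34 in thrombus.

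The genes whose pattern was most like that of Sgk1 were sought among 8092 genes with a mean of at least 10 CPM, by Pearson correlation of log2 CPM over the 10 samples, which share their libraries, depth and sets. The 5 highest were Gadd45b (r = 0.971), a growth arrest and stress gene, Tgif1 (0.960), a repressor of TGF-beta signalling, Coq10b (0.957), a coenzyme Q binding protein gene, Nr4a3 (0.951), a nuclear receptor gene induced by T cell receptor signals, and Pcsk1 (0.950), a proprotein convertase gene. Tgif1 had means of 91.3 ± 13.1 CPM in spleen (SD, n = 3), 463 ± 25.3 in thrombus (n = 4) and 551.5 ± 78.3 in the vein wall (n = 3). Pcsk1 had 0 reads in every spleen sample and means of 25.2 CPM in thrombus and 21.9 in the vein wall. Of the 7 other genes, r with Sgk1 was 0.866 for Tsc22d3, 0.837 for Per1, 0.548 for Nedd4l, 0.203 for Sgk3, -0.16 for Nr3c1 and -0.37 for Fkbp5, and Zbtb16 had too few reads. Sgk1 was selected on its difference from spleen, which these correlations include, so nothing is read from their order.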

How the data were processed

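RNA of sorted CD69+ Treg from spleen, thrombus and vein wall was sequenced in 12 libraries. Per the labels' protocols, 2 ng of RNA gave cDNA in 12 amplification cycles, and 1 ng of that entered Nextera XT, which marks no strand and carries no molecular identifiers, so floors cover counting error only and antisense reads cannot be separated. The authors deposited counts of intron, junction, unique exon and total exon reads per gene and library, per the file headers; nothing in those headers describes scaling of the counts. Reads with more than 1 match, included in the totals, made up 13.6% to 21.8% of exon reads; of the 8 genes' exon reads, 96.3% to 100% per gene and tissue were unique. The build was GRCm38, per the submitters' processing notes, and an aligner is not given in the sources used here.

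These 3 sets of files were joined on Ensembl gene ID (sets 1 and 3) and on symbol or synonym with overlapping position (set 2), which gave 20834 genes with 92.2% to 96.3% of exon reads. RPKM was computed here from total exon reads and exon length, in place of the deposited RPKM. Tests on counts used edgeR 4.0.16 under R 4.3.3 (quasi-likelihood F test, robust, TMM, default filter on low counts, tissue as the single factor, 10 samples), with Benjamini-Hochberg adjustment over 11686 genes and a threshold of 0.05. The script was tested on simulated data. Alternatives were DESeq2 1.42.0, limma 3.58.1 on log2(RPKM + 1), the set of files as covariate, a replicate block, other scalings and filters, unique reads, 12 separate libraries and leaving out each sample.

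Deviations of same-numbered spleen and thrombus samples had r of 0.394, 0.280, 0.154 and 0.104 over genes, and these samples also share a set of files. Vein wall samples with the same number had r of -0.11 to 0.013 across sets and 0.052 to 0.20 within a set. Differently numbered samples of the same set had r of 0.038 to 0.356. A pairing by number therefore cannot be told apart from the set of files. The 8 genes, the gene lists and the tests were chosen with earlier results of these data known. Named genes were the 8, each listed gene called by edgeR, otherwise the 3 with the highest mean CPM of a list, genes called with the set covariate (added after the values were seen) and the 5 genes most like Sgk1. A listed gene that the rule names is not reported here. Markers of 13 cell types were summed; besides those in the results, summed levels ran over all samples from 3.09 to 93.7 CPM for dendritic cells, 202 to 995 for B and plasma cells, 0 to 8.50 for neutrophils, 120 to 430 for NK, NKT and innate lymphoid cells, 0 to 1.61 for mast cells and basophils, 24.1 to 66.9 for endothelium, 0.19 to 6.17 for smooth muscle, 0 to 50.1 for platelets, 1.52 to 1476 for erythroid cells and 19.5 to 252 for pancreas, and 6589 to 9026 for the 9 genes of the Treg sort.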

Additional observations from a re-analysis of the deposited data

Results flagged for a closer look

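Zbtb16 stood at 1.17 CPM in thrombus 1, far from the 0 to 0.106 CPM of the other 3 thrombus samples. The value rests on 18 exon reads, of which none crossed a junction, beside 92 intron reads. Spleen 1, of the same set of files, was the highest spleen sample, with 9 exon reads. Chance sets apart a sample in about 1 in 20 groups of this kind.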

How the results depend on the processing

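The fold changes of 7 genes in 3 comparisons were recomputed under 20 alternatives. Of 420 values, 389 kept their direction and their side of the threshold, 5 passed it and 26 changed sign. Sgk1 against spleen ran from 2.53 to 3.32 in thrombus and from 2.65 to 3.57 in vein wall. It was selected on this difference in the same reads, so nothing is read from its constant direction. With the set of files as covariate Tsc22d3 passed at 1.39 and 1.69, and DESeq2 passed it in vein wall at 1.53. Genes called other than Sgk1 then numbered 1 in each case, and 0 to 1 in either comparison with spleen when a sample was left out, the 1 being Per1 without spleen 1 (1.40 to 3.27 in thrombus and 1.52 to 3.42 in vein wall over the samples left out). The replicate block gave Tsc22d3 at 1.40 and 1.38 (adjusted p = 0.0796 and 0.124) and changed no call among the 8 genes.

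Over all genes, calls in thrombus and vein wall against spleen were 17 and 13. They were 34 and 50 with 12 separate libraries, 53 and 48 with the set covariate, 32 and 24 with the replicate block, 80 and 66 with no filter, 104 and 118 with DESeq2, 11 and 8 with limma, 6 to 34 and 5 to 26 with a sample left out, 7 in vein wall with unique reads and 8 there without the set 2 samples (added after the data were seen). In thrombus against vein wall, where edgeR called 0 with 340 at an unadjusted p under 0.05, 2 were called with no filter, 10 with DESeq2 and 0 to 1 with a sample left out. The cause of these changes was not tested.

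The values that changed sign follow. Nr3c1 in thrombus against spleen was -0.024 with limma and -0.16 to 0.26 with a sample left out. The others were in thrombus against vein wall. With a sample left out, Sgk1 ran from -0.40 to 0.014, Sgk3 from -1.25 to 0.34, Tsc22d3 from -0.46 to 0.15, Fkbp5 from -0.40 to 0.35, Per1 from -0.40 to 0.35 and Nedd4l from -0.24 to 1.09. Without the set 2 samples the values were 0.029 for Sgk1, 0.60 for Sgk3, 0.034 for Tsc22d3 and -0.077 for Fkbp5. Tsc22d3 was 0.053 with 12 libraries and 0.015 with the replicate block. Fkbp5 was -0.050 with 12 libraries, -0.14 with the set covariate, -0.34 with the replicate block and -0.038 with no filter, and Per1 was 0.086 with limma. Each tissue had 3 or 4 samples, and spleen samples differed among themselves. Against spleen, Tsc22d3 and Per1 passed the threshold in some fits and not in most, including the one with tissue alone. At 0 to 18 exon reads Zbtb16 could not be compared.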
